A study of Mus musculus with 40 samples.

Results

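The genes described here are 36 interferon-stimulated antiviral genes of the mouse, out of the 43346 genes listed for each tumour. They were chosen by name from outside the OAS, IFIT and guanylate-binding families, with earlier results of these data known. Each name matched 1 Ensembl gene, and all 36 passed the filter on low values, which asked for a value of at least 1 in at least 4 mice. They were followed in RNA-seq of 40 spontaneous mammary tumours from MMTV-Wnt1 mice, which carry the Wnt1 ligand gene under the promoter of the mouse mammary tumour virus, active in mammary epithelium, and so every group carried that transgene. Doxorubicin, a DNA-damaging anthracycline, was injected intraperitoneally at 4 mg/kg on each of 5 days, and tumours were taken 24 h after the last dose.

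Tumours lacking p53 came from 5 doxorubicin-treated mice (6 tumours) and 4 untreated mice (6 tumours). Tumours lacking p21, the cyclin-dependent kinase inhibitor encoded by Cdkn1a, came from 9 treated mice (10 tumours) and 5 untreated mice (6 tumours). Wild-type tumours came from 5 treated mice (6 tumours) and 6 untreated mice (6 tumours). The labels give neither the null alleles, the strain background beyond the transgene nor the age of the mice. Tumours with the same mouse number were averaged, so n counts mice. Values are transcript abundances (TPM) rescaled in each tumour so that nuclear protein-coding genes sum to 1000000, and are called units below. Differences are in log2(value + 1), which understates the change of low genes.

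Type I and type III interferons bind receptors on the cell surface and, through the kinases JAK1 and TYK2, lead STAT2 and IRF9 to bind interferon-stimulated response elements in gene promoters. The genes switched on this way make proteins that block viral entry, translation, RNA replication and budding, and others that damp the response again. In tumours the same genes are known to be expressed by cancer cells, by stromal cells and by infiltrating immune cells, so bulk RNA does not say which cell expressed them. Here fewer cells of a type and less RNA per cell cannot be told apart.

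Promoter sequence was available for 28 of the 36 genes, as windows of 250 bases before and 50 bases after the annotated start (RefSeq, GRCm38.p6, the build of the files). The letters of the interferon-stimulated response element, GAAANNGAAA on either strand (reverse TTTCNNTTTC), occurred in 10 of the 28 windows (35.7%), against 4.0% of the windows of 27025 genes. The letters of the gamma-activated site, TTCNNNGAA, which read the same on both strands, occurred in 6 of the 28 (21.4%), against 9.6% of all windows. In Eif2ak2, Ifitm3 and Shisa5 the response element letters lay only after the start. A match of letters is a description and does not show that a factor binds. The stretches below are 6 that lie before the start of genes described in the results, each with 15 bases on either side, 5′ to 3′ along the gene, with the response element letters in capitals. The Isg15 stretch holds 3 overlapping matches, the Bst2 stretch holds 2, and the others hold 1 each.
Isg15 (chr4:156200860-156200911, minus strand): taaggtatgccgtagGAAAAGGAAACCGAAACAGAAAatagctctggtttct
Bst2 (chr8:71537572-71537617, minus strand): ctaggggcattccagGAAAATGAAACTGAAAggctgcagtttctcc
Rsad2 (chr12:26456548-26456587, minus strand): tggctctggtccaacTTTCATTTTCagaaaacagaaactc
Ddx60 (chr8:61928019-61928058, plus strand): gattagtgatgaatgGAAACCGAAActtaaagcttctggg
Trim30a (chr7:104465205-104465244, minus strand): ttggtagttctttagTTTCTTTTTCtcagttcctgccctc
Lgals9 (chr11:78984955-78984994, minus strand): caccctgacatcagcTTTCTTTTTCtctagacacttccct

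Genotype names are those of the labels, and the gene-level values of the targeted genes do not check them, because they sum all transcripts of a locus and no label gives the deleted part. Trp53 stood at 47.9 to 88.1 units in treated and 63.4 to 85.5 units in untreated tumours labelled p53-null. Cdkn1a stood at 224 to 328 units in treated and 33.4 to 78.4 units in untreated tumours labelled p21-null, so its RNA was present and higher after treatment there too. In tumours labelled p53-null it ranged from 14.9 to 105 units with doxorubicin and from 17.8 to 78.7 units without, and in wild-type tumours from 172 to 241 units with doxorubicin and from 12.1 to 51.1 units without. Epithelial markers of the mammary gland summed to between 3830 and 10000 units in every mouse. Nuclear protein-coding genes took 79.6% to 86.27% of deposited TPM in null tumours and 7.72% to 10.73% in wild-type tumours, whose libraries were made with another kit, so levels are compared below only within a kit. The deposited values carry no depth.

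With doxorubicin nearly all of the 36 genes rose in each genotype. The list was chosen with earlier results of these data known, so its counts describe it and are not independent support. In p21-null tumours 36 of 36 genes rose, where 3.85% of the 19893 genes tested rose (limma, 6 groups in 1 fit, Benjamini-Hochberg adjusted p under 0.05). In p53-null tumours 35 of 36 rose, where 0.895% of all genes did, and in wild-type tumours 33 of 36 rose, where 3.26% of all genes did. None of the 36 fell in any genotype, and 32 were called in all 3 genotypes. The exceptions were Batf2 in p53-null tumours (adjusted p = 0.0546) and Eif2ak2, Epsti1 and Sp100 in wild-type tumours (adjusted p = 0.114, 0.152 and 0.349).

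The median log2 difference over the 36 genes was 1.51 in p21-null, 1.44 in p53-null and 1.12 in wild-type tumours. These are median folds of 2.85, 2.72 and 2.18 in value + 1. Over all genes tested the medians were -0.059, 0.039 and 0.02. Value + 1 at least doubled for 28, 30 and 21 of the 36 in these 3 genotypes, and rose at least 4-fold for 9, 4 and 0. Folds of the value itself are larger, most so for low genes. Every treated mouse lay above every untreated mouse for 32 of the 36 genes in p21-null, 30 in p53-null and 22 in wild-type tumours, where this held for 2.5%, 2.06% and 3.62% of all genes tested. Genes with larger log2 differences in a genotype tended to have larger ones in the others, which share no sample with it. Pearson's r over the 36 genes was 0.76 between p21-null and p53-null, 0.90 between p21-null and wild-type and 0.65 between p53-null and wild-type tumours. It is given as a description over genes and does not show that folds were of equal size.

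**Figure D1:**
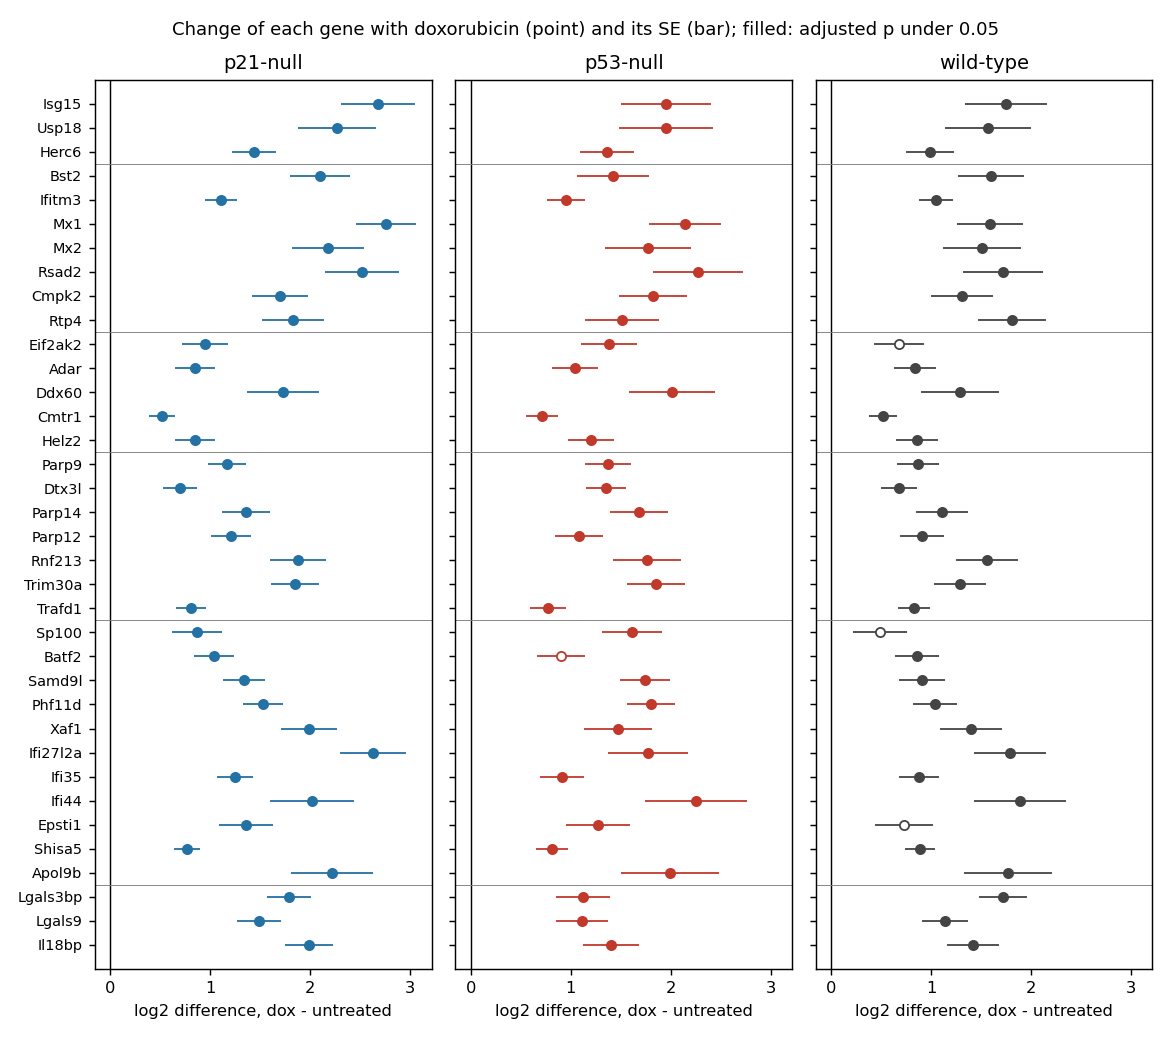
The log2 difference between treated and untreated tumours (point, x axis) with its standard error (bar) for each of the 36 genes (rows, grouped by role) in p21-null, p53-null and wild-type tumours. All points lie to the right of 0, and the 4 open points are those with an adjusted p above 0.05.

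The p53-null counts depended on how the spread was estimated and on single mice. Counting calls in either direction over all genes, 1.19% passed in the p53-null comparison and 4.96% in the wild-type comparison as reported. With only the treated and untreated p53-null mice in the fit, 0 of 36 genes were called (limma, with 36 of 36 at an unadjusted p under 0.05), where 0.00503% of all genes were. With both null genotypes in the fit 31 were called, where 0.789% of all genes were. Without untreated mouse m881 the count was 12 (0.488% of all genes), without treated mouse m2771 it was 18 (0.598%) and without treated mouse m2237 it was 21 (0.633%). The wild-type count was 19 without treated mouse m1127 (3.55% of all genes), and 12 on TPM as deposited (1.1% of the 16338 genes tested there).

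**Figure D2:**
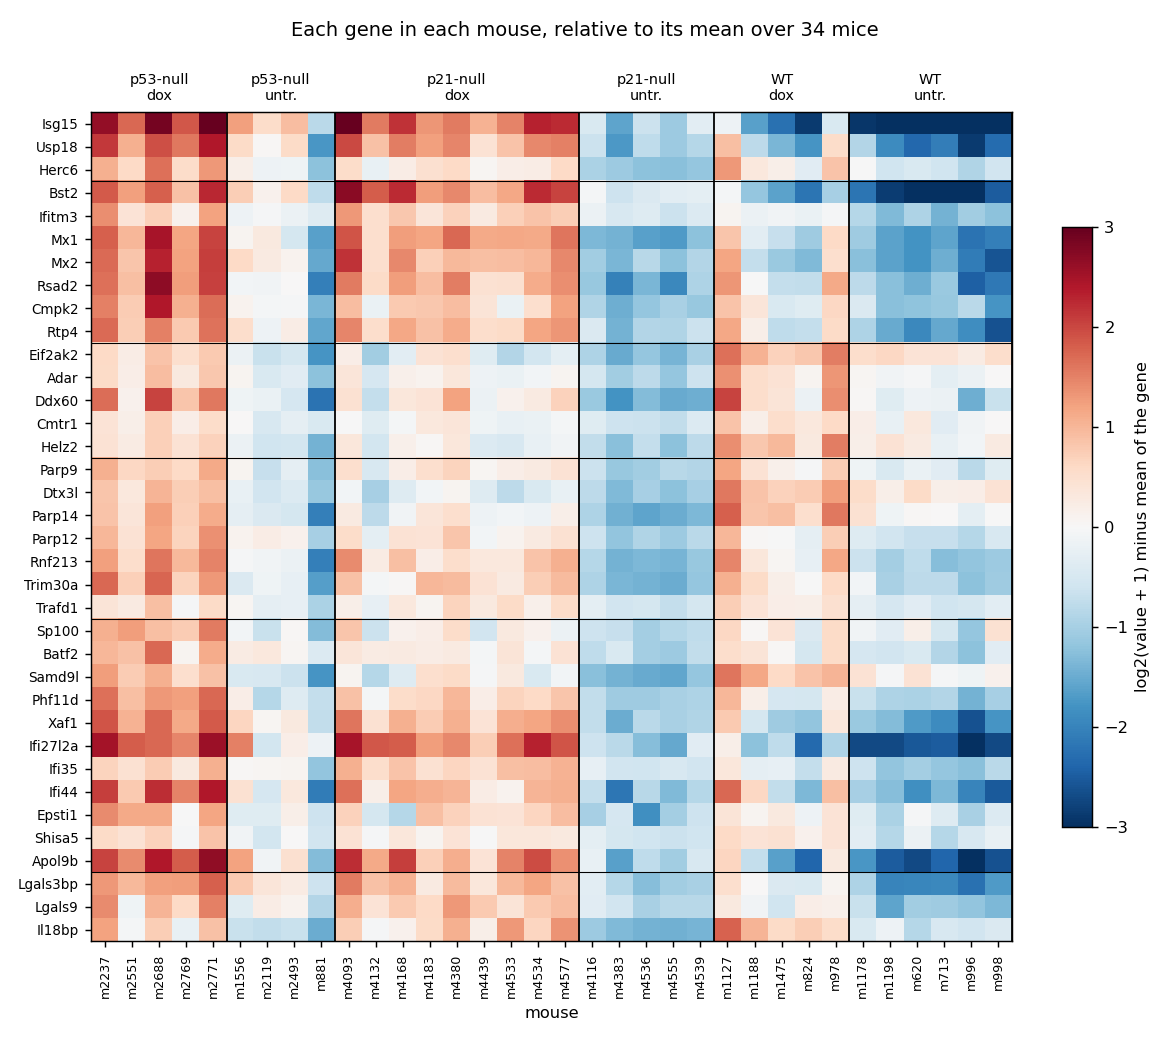
Each of the 36 genes (rows, grouped by role) in each of the 34 mice (columns, by group), as log2(value + 1) minus the mean of the gene over all mice. Treated groups are redder than their untreated groups, and untreated p53-null mouse m881 is bluer than the other 3 untreated p53-null mice. Wild-type columns came from another library kit.

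The ISG15 system tags proteins with the ubiquitin-like protein ISG15, and its 3 genes here rose in every genotype. Isg15 itself stood between 256 and 1027 units (median 368) in treated p21-null mice, against 41, 57.4, 78.9, 90.1 and 99.5 units in untreated ones. Every treated mouse was well above the highest untreated one, and the log2 difference was 2.68 ± 0.37 (SE; adjusted p = 1.06e-05). In p53-null tumours it stood at 413, 452, 776, 908 and 1014 units in treated mice, against 70.5, 181, 237 and 293 units in untreated mice, again without overlap (log2 difference 1.95 ± 0.45). Wild-type values were 16, 25.6, 39.6, 90.7 and 111 units in treated mice, against between 10.3 and 15.6 units (median 12.2) in untreated mice. There the lowest treated mouse was just above the highest untreated one, and the treated mice were spread widely (log2 difference 1.75 ± 0.41, adjusted p = 0.00824).

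Usp18 encodes the protease that removes ISG15 and also damps signalling from the type I receptor. It stood between 41.9 and 124 units (median 84.5) in treated p21-null mice, against 8.62, 13.9, 16.4, 17.6 and 19.2 units in untreated ones. In p53-null tumours Usp18 stood at 64.6, 92.8, 119, 136 and 165 units in treated mice, against 8.41, 31.3, 45.8 and 46.3 units in untreated ones. Neither pair of groups overlapped, and the log2 differences were 2.27 ± 0.39 and 1.95 ± 0.47. In wild-type tumours the groups overlapped, with 8.31, 11.2, 17.4, 45.1 and 58.2 units in treated mice and between 3.32 and 16.1 units (median 5.96) in untreated mice (log2 difference 1.57 ± 0.43, adjusted p = 0.0269). Herc6, the main ISG15 ligase of the mouse, rose by 1.44, 1.36 and 0.99 on the log2 scale in p21-null, p53-null and wild-type tumours.

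Among genes whose products act on viruses directly, all 7 rose in every genotype, with median log2 differences of 2.10, 1.77 and 1.59. Mx1 and Mx2, dynamin-like GTPases that trap viral particles, lie near each other on chromosome 16 and are similar in sequence, so reads they share could be split between them. Mx1 stood between 15.1 and 40.7 units (median 24.8) in treated p21-null mice, against 2.48, 2.64, 3.21, 3.4 and 3.8 units in untreated mice. It had the largest log2 difference of the set there, 2.76 ± 0.30 (limma adjusted p = 1.38e-07), which is 6.76-fold in value + 1. The treated p53-null mice had 21.5, 24.5, 38.1, 44.6 and 61.9 units, against 2.63, 6.81, 11 and 12.9 units in untreated mice (log2 difference 2.14 ± 0.36). Treated wild-type mice had 4.4, 5.96, 8.03, 16 and 19 units, against between 1.42 and 4.37 units (median 2.46) in untreated mice (log2 difference 1.59 ± 0.33). The groups were separate in each genotype. Mx2, annotated as a polymorphic pseudogene in GENCODE because some strains carry a disrupted allele, rose by 2.18, 1.77 and 1.51 on the log2 scale.

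Rsad2 encodes viperin, a radical-SAM enzyme that makes a chain-terminating nucleotide from CTP. It stood between 17.3 and 38.2 units (median 27.9) in treated p21-null mice, against 2.27, 2.47, 4.13, 5.02 and 5.98 units in untreated mice (log2 difference 2.52 ± 0.37). Treated p53-null mice had 24, 30.9, 40.8, 54.2 and 84.4 units, against 2.19, 11.3, 11.6 and 12.3 units in untreated mice, where 3 mice were close together and mouse m881 was far below them (log2 difference 2.27 ± 0.45, the largest of the set in that genotype). Wild-type mice had 6.91, 7.14, 12.2, 28 and 32.1 units with doxorubicin, against between 1.42 and 6.72 units (median 4.22) without (log2 difference 1.72 ± 0.40). In each genotype the treated mice lay above the untreated mice. Cmpk2, which lies beside Rsad2 on chromosome 12 on the opposite strand (26469204 to 26479837, against 26442746 to 26456452 for Rsad2) and encodes a mitochondrial nucleotide kinase, rose by 1.70, 1.82 and 1.31 on the log2 scale.

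Bst2 encodes tetherin, which holds budding virions at the cell surface. It stood between 490 and 1668 units (median 899) in treated p21-null mice, against 166, 191, 204, 210 and 245 units in untreated mice (log2 difference 2.10 ± 0.30). In p53-null tumours Bst2 stood at 471, 602, 889, 924 and 1233 units in treated mice, against 152, 282, 388 and 430 units in untreated mice (log2 difference 1.42 ± 0.36, adjusted p = 0.0417). Wild-type mice had 55.6, 84.2, 115, 127 and 248 units with doxorubicin, against between 27.6 and 55.2 units (median 32.7) without (log2 difference 1.60 ± 0.33). The groups did not overlap in any genotype. Bst2 is also a marker of plasmacytoid dendritic cells, whose part in these values was not tested. Of the other 4 markers of that list that passed the filter, 0 rose in any genotype, and 1 was lower at an unadjusted p under 0.05 in p21-null tumours and 1 in wild-type tumours. Siglech, a lectin of these cells, averaged 0.361 ± 0.354 units in treated and 0.773 ± 0.458 units in untreated p21-null mice, 1.5 ± 1.03 and 0.965 ± 0.314 units in treated and untreated p53-null mice, and 0.712 ± 0.352 and 1.49 ± 0.594 units in treated and untreated wild-type mice. Ccr9 passed the filter through wild-type mice alone, with at most 0.459 units in any null mouse, so its tests say nothing about null tumours. In null groups Ly6d averaged 1340 to 2040 units and Tcf4 24.2 to 44.8 units, far above Siglech. Which cells expressed Ly6d and Tcf4 was not tested.

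Ifitm3 encodes a membrane protein that stops viruses fusing in endosomes, and was the most abundant of the 36 genes in every group by median. It stood between 1243 and 2555 units (median 1700) in treated p21-null mice, against 664, 744, 786, 793 and 921 units in untreated mice (log2 difference 1.11 ± 0.16). The treated p53-null mice had 1141, 1380, 1696, 2381 and 2715 units, against 792, 922, 928 and 1020 units in untreated mice (log2 difference 0.95 ± 0.19). Wild-type mice had 904, 923, 964, 1004 and 1099 units with doxorubicin, against between 387 and 572 units (median 472) without (log2 difference 1.05 ± 0.17). Its log2 difference was close to 1 in all 3 genotypes and the groups were separate in each. Ifitm3 has close relatives, and reads shared with them were assigned by the authors' software.

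Rtp4 encodes a receptor transport protein that also restricts flaviviruses. It stood between 103 and 197 units (median 155) in treated p21-null mice, against 26, 37.4, 38.1, 45.2 and 52.1 units in untreated mice (log2 difference 1.83 ± 0.31). Treated p53-null mice had 119, 123, 203, 220 and 230 units, against 23.2, 63.9, 82.3 and 102 units in untreated mice (log2 difference 1.51 ± 0.37). Wild-type mice had 41.6, 42.6, 79.4, 106 and 159 units with doxorubicin, against between 10.8 and 36.5 units (median 21.3) without (log2 difference 1.81 ± 0.34). Treated mice were above untreated mice in all 3 genotypes.

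**Figure D3:**
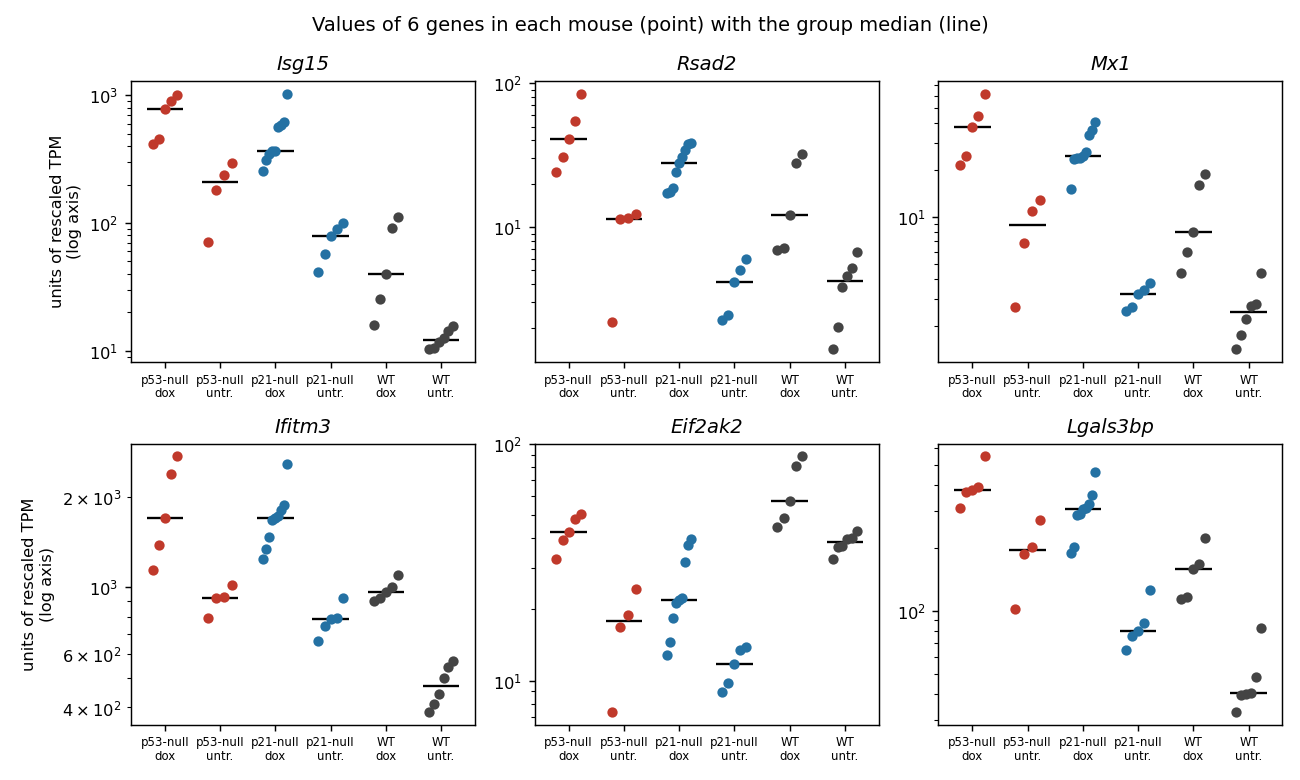
Values of Isg15, Rsad2, Mx1, Ifitm3, Eif2ak2 and Lgals3bp in each mouse (points) with the group median (line), on log axes in units of rescaled TPM. Treated mice lie above untreated mice of the same genotype for Isg15, Mx1 and Ifitm3, while Eif2ak2 values of treated and untreated p21-null mice overlap. Wild-type values came from another library kit.

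The genes that bind or modify RNA had median log2 differences of 0.85 in p21-null, 1.20 in p53-null and 0.84 in wild-type tumours, where 5, 5 and 4 of the 5 rose. Eif2ak2 encodes PKR, the kinase that stops translation on double-stranded RNA. It stood between 12.8 and 39.5 units (median 22) in treated p21-null mice, against 8.91, 9.8, 11.8, 13.4 and 13.9 units in untreated mice, with overlap (log2 difference 0.95 ± 0.23, adjusted p = 0.00948). In p53-null tumours Eif2ak2 stood at 32.5, 39.4, 42.4, 48.3 and 50.4 units in treated mice, against 7.38, 16.8, 18.9 and 24.3 units in untreated mice, without overlap (log2 difference 1.38 ± 0.28). Wild-type mice had 44.7, 48.6, 57.4, 80.9 and 88.4 units with doxorubicin, against between 32.6 and 42.8 units (median 38.4) without. Those groups did not overlap either, but the difference of 0.68 ± 0.25 did not pass the test.

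Adar encodes the enzyme that edits adenosine to inosine in double-stranded RNA. It stood between 28.2 and 52.5 units (median 43.1) in treated p21-null mice, against 17.4, 19.2, 22.8, 25.8 and 27.6 units in untreated mice (log2 difference 0.85 ± 0.20). The treated p53-null mice had 46.3, 49.5, 60.1, 71.2 and 78 units, against 16.6, 28.9, 31.8 and 43 units in untreated mice (log2 difference 1.04 ± 0.23). Wild-type mice had 42.4, 54.4, 59, 103 and 106 units with doxorubicin, against between 32.6 and 41.8 units (median 38.4) without (log2 difference 0.84 ± 0.21). The lowest treated mouse was close to the highest untreated one in every genotype. Ddx60, an RNA helicase, moved most of this group, by 1.73, 2.01 and 1.29 on the log2 scale. Cmtr1, the methyltransferase of the messenger RNA cap, moved least, by 0.52, 0.71 and 0.52. Helz2, a helicase and nuclear receptor coactivator, rose by 0.85, 1.20 and 0.86.

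The 7 genes of ADP-ribosylation and ubiquitin ligation all rose in every genotype, with median log2 differences of 1.21 in p21-null, 1.37 in p53-null and 0.91 in wild-type tumours. Parp9, Dtx3l and Parp14 lie side by side on chromosome 16, and Parp9 (plus strand, 35938470 to 35972605) overlaps Dtx3l (minus strand, 35926511 to 35939151). The sources used here do not say whether counting used strand, so their shared bases are uncertain. Parp14, a mono-ADP-ribosyltransferase, stood between 11.5 and 29.5 units (median 19.2) in treated p21-null mice, against 6.16, 6.69, 6.89, 7.35 and 10.2 units in untreated mice (log2 difference 1.36 ± 0.24). Treated p53-null mice had 26.7, 34.3, 37.6, 45.7 and 49.5 units, against 4.18, 13.8, 14.9 and 16.8 units in untreated mice (log2 difference 1.68 ± 0.29). Wild-type mice had 29.3, 37.3, 39.3, 62.9 and 73.6 units with doxorubicin, against between 16.5 and 28.2 units (median 20.6) without (log2 difference 1.11 ± 0.26). In each genotype the treated mice were above the untreated mice. Parp9, which forms a ubiquitin ligase complex with Dtx3l, rose by 1.17, 1.37 and 0.87, and Dtx3l by 0.70, 1.35 and 0.68. Parp12, another mono-ADP-ribosyltransferase, rose by 1.21, 1.08 and 0.91.

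Trim30a encodes a RING-finger protein of a mouse family of similar genes, among which shared reads could be split. It stood between 19.4 and 41.3 units (median 34.8) in treated p21-null mice, against 6.63, 6.97, 7.26, 8.57 and 10.3 units in untreated mice (log2 difference 1.85 ± 0.24, adjusted p = 3.49e-06). In p53-null tumours Trim30a stood at 33.1, 34.2, 51.8, 69.5 and 70.8 units in treated mice, against 5.76, 14.7, 17 and 18.6 units in untreated mice (log2 difference 1.85 ± 0.29). Wild-type mice had 20.1, 23, 30.6, 31.3 and 43.9 units with doxorubicin, against between 8.16 and 19.2 units (median 10.6) without (log2 difference 1.29 ± 0.26). No treated mouse fell within the untreated range of its genotype. Rnf213, a very large ubiquitin ligase with ATPase domains, rose by 1.88, 1.76 and 1.56 on the log2 scale. Trafd1, an inhibitor of innate signalling, rose by 0.81, 0.77 and 0.83.

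The secreted products in the set are Lgals3bp, a glycoprotein that binds galectins, Lgals9, a galectin, and Il18bp, the soluble decoy receptor of the cytokine IL-18, and all 3 rose in every genotype. Lgals3bp stood between 190 and 464 units (median 306) in treated p21-null mice, against 64.8, 75.8, 79.9, 87 and 126 units in untreated mice (log2 difference 1.79 ± 0.22). The treated p53-null mice had 309, 369, 378, 390 and 548 units, against 102, 188, 203 and 271 units in untreated mice (log2 difference 1.12 ± 0.27). Wild-type mice had 114, 117, 158, 167 and 223 units with doxorubicin, against between 32.8 and 82.8 units (median 40.2) without (log2 difference 1.72 ± 0.24, adjusted p = 1.56e-05). Treated and untreated mice did not overlap in any genotype. Il18bp stood between 19.4 and 51.7 units (median 31.6) in treated p21-null mice, against 6.72, 6.85, 6.92, 7.3 and 8.84 units in untreated mice (log2 difference 1.99 ± 0.24). In treated p53-null mice it stood at 17, 19.2, 34, 37.1 and 47.3 units, against 6.45, 11.5, 12.1 and 12.2 units in untreated mice (log2 difference 1.40 ± 0.28). Treated wild-type mice had 29.4, 30.3, 34, 41.3 and 70.3 units of it, against between 10.5 and 17.7 units (median 14.2) in untreated mice (log2 difference 1.42 ± 0.26). Again the groups were separate. Lgals9 rose by 1.49, 1.11 and 1.14.

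Of the 11 remaining intracellular genes, 11 rose in p21-null, 10 in p53-null and 9 in wild-type tumours, with median log2 differences of 1.36, 1.61 and 0.91. Batf2, a bZIP transcription factor, was the least abundant of the 36 genes in every group by median. It stood between 2.32 and 3.65 units (median 3.17) in treated p21-null mice, against 0.629, 0.707, 1.05, 1.08 and 1.52 units in untreated mice (log2 difference 1.04 ± 0.20). Treated p53-null mice had 2.68, 5.33, 5.88, 6.45 and 10.5 units, against 1.59, 2.6, 3.12 and 3.34 units in untreated mice, and the groups overlapped (log2 difference 0.90 ± 0.24). Wild-type mice had 1.4, 2.54, 3.5, 4.01 and 4.19 units with doxorubicin, against between 0.474 and 1.74 units (median 1.4) without, again with overlap (log2 difference 0.86 ± 0.22). Sp100, a component of PML nuclear bodies, averaged 69.1 ± 22.9 units in treated and 35.6 ± 3.78 units in untreated p21-null mice (SD, n = 9 and 5), and 137 ± 31.2 units in treated and 46.5 ± 18 units in untreated p53-null mice (SD, n = 5 and 4). In wild-type tumours it averaged 76.1 ± 21.1 units with doxorubicin and 55.6 ± 20.8 units without (SD, n = 5 and 6), a difference of 0.49 ± 0.27 on the log2 scale that did not pass the test. Epsti1, an epithelial-stromal interaction gene, differed by 1.36 ± 0.27, 1.27 ± 0.32 and 0.73 ± 0.29, the last of which did not pass.

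Ifi27l2a, a mitochondrial protein of the ISG12 family with near-identical neighbours, averaged 1020 ± 353 units in treated and 162 ± 53.7 units in untreated p21-null mice, a log2 difference of 2.63 ± 0.33. The averages were 1240 ± 427 units in treated and 409 ± 294 units in untreated p53-null mice, whose ranges overlapped, and the log2 difference of 1.77 ± 0.40 lost its call in 4 of the 9 fits that left out 1 mouse. In wild-type tumours Ifi27l2a averaged 167 ± 101 units with doxorubicin and 42.1 ± 10.3 units without, a log2 difference of 1.79 ± 0.36. Apol9b, an apolipoprotein L family member that shares reads with its copy Apol9a, rose by 2.22, 1.99 and 1.77 in p21-null, p53-null and wild-type tumours. Ifi44, which had the largest log2 difference in wild-type tumours, rose by 2.02, 2.25 and 1.89. Xaf1, a pro-apoptotic partner of the inhibitor XIAP, rose by 1.99, 1.47 and 1.40. Phf11d, a PHD-finger gene of a mouse cluster, rose by 1.53, 1.80 and 1.04, and Samd9l, a growth-restricting antiviral factor, by 1.34, 1.74 and 0.91. Ifi35 rose by 1.25, 0.91 and 0.88. Shisa5, which is also known as a target of p53, rose by 0.77, 0.81 and 0.89, and its groups in p53-null tumours averaged 234 ± 50 units with doxorubicin and 132 ± 27.2 units without (SD, n = 5 and 4).

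A score for each tumour, the mean of log2(value + 1) over the 36 genes, summarised the set. In p21-null mice it ran from 5.43 to 6.38 with doxorubicin (median 5.97), against 4.15 to 4.63 without (median 4.29). In p53-null mice it ran from 6.02 to 6.81 with doxorubicin (median 6.65), against 4.09 to 5.48 without (median 5.18). In wild-type mice it ran from 4.83 to 6.28 with doxorubicin (median 5.42), against 3.95 to 4.71 without (median 4.29). By mouse, the treated and untreated ranges were separate in each genotype.

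Within groups, the genes tended to be high or low in the same mouse. Treated wild-type mouse m1127 was the highest of its group for 33 of the 36 genes and mouse m824 the lowest for 28. Untreated wild-type mouse m1178 was highest for 25 and mouse m996 lowest for 22. Among untreated p53-null mice, mouse m881 was lowest for 33 and mouse m1556 highest for 24. Untreated p21-null mouse m4116 was highest for 27, and treated p21-null mouse m4093 was highest for 19 and mouse m4132 lowest for 20. Pairs of tumours from 1 mouse showed how far tumours in the same animal could differ. Treated p53-null mouse m2551 had tumours with scores of 5.31 and 6.72, a gap of 1.42, and the lower of them lay within the range of the untreated p53-null tumours (4.09 to 5.67). The other 5 pairs were 0.19 to 0.75 apart, with untreated p53-null mouse m2493 at 5.63 and 4.88.

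**Figure D4:**
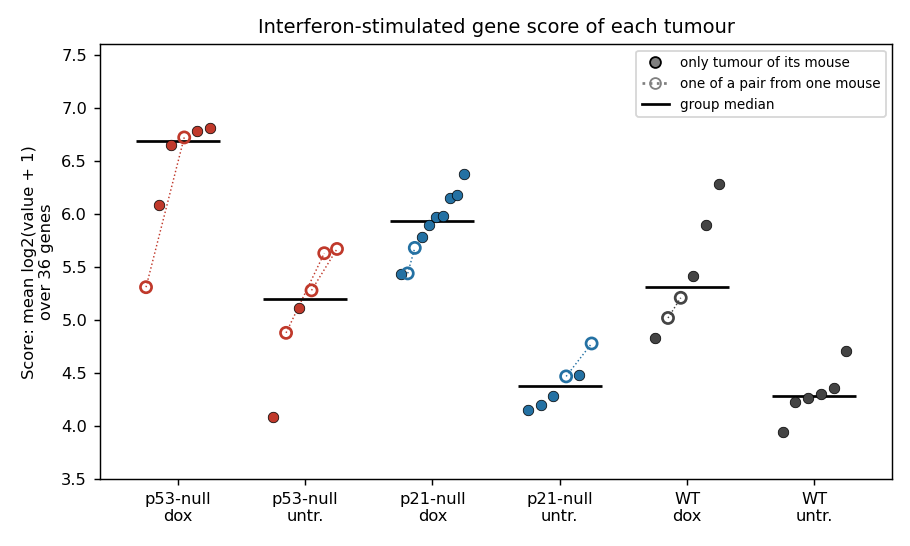
The score of each of the 40 tumours (points) by group, where the score is the mean of log2(value + 1) over the 36 genes and the line is the median over tumours. Open points joined by a dotted line are tumours of 1 mouse, and the pair from treated p53-null mouse m2551 spans 5.31 to 6.72. Wild-type tumours were sequenced from another library kit.

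Whether the response itself differed between genotypes was tested as the difference of differences. Between p21-null and p53-null responses, 0 of 36 genes passed, where 0.548% of all genes did in either direction (limma, with 1 of 36, Dtx3l, at an unadjusted p under 0.05). Dtx3l differed by -0.65 on the log2 scale (95% interval -1.19 to -0.11, adjusted p = 0.326), with 0.70 ± 0.17 in p21-null and 1.35 ± 0.20 in p53-null tumours. Intervals on 28 residual degrees of freedom had a median half-width of 0.76, so differences of that size remain possible for most of the genes. For Isg15 the interval was -0.47 to 1.93. Between p21-null and wild-type responses, 0 of 36 passed, where 0.131% of all genes did (1 of 36, Mx1, at an unadjusted p under 0.05), and the median difference was 0.38. Mx1 differed by 1.17 (95% interval 0.26 to 2.07, adjusted p = 0.47), and on TPM as deposited, a scale that lowers wild-type values before the pseudocount is added, by 2.07 with an adjusted p of 0.00278. Between p53-null and wild-type responses, 0 of 36 passed, where 0.749% of all genes did (4 of 36, Dtx3l, Sp100, Samd9l and Phf11d, at an unadjusted p under 0.05), and the median difference was 0.24. Sp100 differed most, by 1.12 (95% interval 0.30 to 1.94, adjusted p = 0.265). Comparisons with wild-type also compare library kits.

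In untreated tumours all 36 genes had a higher mean in p53-null than in p21-null mice, with a median log2 difference of 0.62, where the median of all genes was 0.014 and 52.7% of genes were above 0. Only Lgals3bp passed, where 1.59% of all genes passed in either direction, and 16 of the 36 had an unadjusted p under 0.05. Lgals3bp stood at 102, 188, 203 and 271 units in untreated p53-null mice, against 64.8, 75.8, 79.9, 87 and 126 units in untreated p21-null mice (log2 difference 1.08 ± 0.27, limma adjusted p = 0.0297). The groups overlapped, since p53-null mouse m881 was below the highest p21-null mouse. The difference did not pass when only these groups were fitted (adjusted p = 0.132). Isg15 had the largest difference, 1.29 ± 0.45, and did not pass (adjusted p = 0.151). Batf2 and Xaf1 were the only genes of the 36 whose groups did not overlap, where p53-null mice were wholly above p21-null mice for 4.38% of all genes. Batf2 stood at 1.59, 2.6, 3.12 and 3.34 units in untreated p53-null mice and 0.629, 0.707, 1.05, 1.08 and 1.52 units in untreated p21-null mice (log2 difference 0.86 ± 0.24, adjusted p = 0.0589). Xaf1 averaged 76.1 ± 28 units in p53-null and 34.9 ± 6.53 units in p21-null mice (SD, n = 4 and 5; log2 difference 1.04 ± 0.34, limma adjusted p = 0.117). Both separations were narrow, with Xaf1 at 41.1 units in the lowest p53-null mouse and 40.8 units in the highest p21-null mouse.

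The untreated p53-null mice were not alike. Relative to the mean of the untreated p21-null mice, 36 of the 36 genes were higher in mouse m1556 (median log2 difference 1.08), 36 in mouse m2493 (0.93), 35 in mouse m2119 (0.72) and 9 in mouse m881 (-0.37). Values above every untreated p21-null mouse were found for 35 of the 36 genes in mouse m1556 (29.0% of all genes tested), 36 in mouse m2493 (26.3%), 30 in mouse m2119 (36.7%) and 4 in mouse m881 (20.5%). Without mouse m881 the median log2 difference was 0.97 and 5 genes passed, where 1.39% of all genes did. These were Lgals3bp (1.36, adjusted p = 0.00486), Parp12 (1.06, adjusted p = 0.0143), Herc6 (1.11, adjusted p = 0.0246), Batf2 (1.02, adjusted p = 0.0343) and Mx1 (1.42, adjusted p = 0.0346). No label sets mouse m881 apart. Without it the count of genes that rose with doxorubicin in p53-null tumours was 12, as given above, with a median log2 difference of 1.18.

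**Figure D5:**
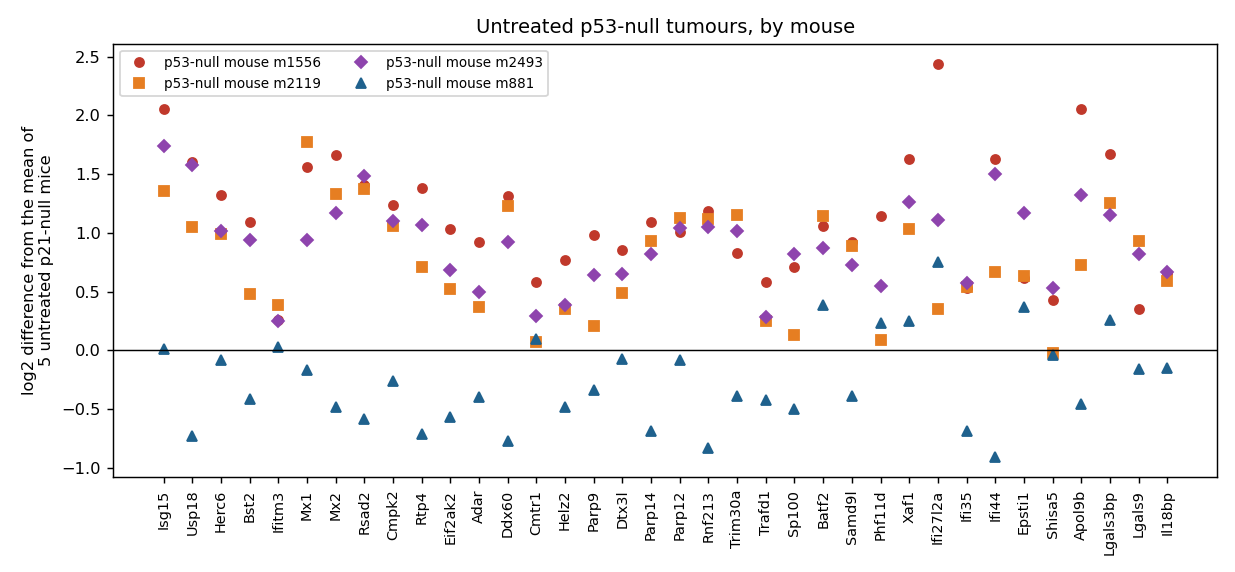
Each untreated p53-null mouse (symbols) relative to the mean of the 5 untreated p21-null mice, as a difference in log2(value + 1), for the 36 genes (x axis). Mice m1556, m2119 and m2493 lie above 0 for all but 1 value, while mouse m881 lies below 0 for 27 of the 36 genes.

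Other genes of the pathway were read from lists of its ligands, receptors, factors and targets. Of 21 interferon genes, 2 passed the filter on low values (Ifnk and Ifnz), through wild-type mice alone, and the others were not tested. Of these 2, 0 rose or fell with doxorubicin in any genotype, also at an unadjusted p under 0.05 (limma). In the null groups Ifnk averaged at most 0.0553 units and Ifnz at most 0.253 units, too low for the tests to say anything about null tumours. The summed level of the 21 genes was 0.575 to 1.40 units in treated and 0.238 to 0.74 units in untreated p21-null mice, 1.02 to 2.08 units in treated and 0.391 to 1.07 units in untreated p53-null mice, and 2.75 to 4.92 units in treated and 2.43 to 4.70 units in untreated wild-type mice. Summed over the list, ligand RNA stayed below 5 units in every mouse. In both null genotypes the treated range of this sum reached higher than the untreated range and overlapped it, a difference that was not tested. Of 9 receptor and kinase genes, 0 changed in p21-null and 0 in p53-null tumours (limma, 2 and 0 at an unadjusted p under 0.05), and 1 rose in wild-type tumours, Il10rb by 0.52 ± 0.15 on the log2 scale. Among transcription factors of the pathway, Irf7, the factor that amplifies type I interferon production, rose by 2.68 ± 0.34 in p21-null and 1.97 ± 0.36 in wild-type tumours, and Stat2 by 1.61 ± 0.25 in p53-null and 1.25 ± 0.23 in wild-type tumours. Irf7 averaged 474 ± 193 units in treated and 112 ± 53.6 units in untreated p53-null mice (SD, n = 5 and 4). Stat2 averaged 35.9 ± 8.25 units in treated and 12.7 ± 2.28 units in untreated p21-null mice (SD, n = 9 and 5).

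Of 9 feedback regulators and conjugation enzymes, 3, 2 and 2 rose in p21-null, p53-null and wild-type tumours. Ube2l6, the conjugating enzyme for ISG15, rose by 1.39 ± 0.17 in p21-null and 1.38 ± 0.21 in p53-null tumours, and Uba7, its activating enzyme, by 0.95 ± 0.20, 0.92 ± 0.23 and 0.85 ± 0.21. Ube2l6 averaged 24.3 ± 5.82 units in treated and 18.2 ± 3.56 units in untreated wild-type mice (SD, n = 5 and 6). Of 18 nucleic acid sensors, 12, 11 and 9 rose. Zbp1, a sensor of Z-form nucleic acid, rose by 2.18 ± 0.27 in p21-null and 1.52 ± 0.29 in wild-type tumours, and Ifih1, which encodes the RNA sensor MDA5, by 1.52 ± 0.24 in p53-null tumours. Zbp1 averaged 152 ± 49.5 units in treated and 43.5 ± 17.7 units in untreated p53-null mice (SD). Ifih1 averaged 25.1 ± 5.43 units in treated and 9.97 ± 1.69 units in untreated p21-null mice (SD). Its wild-type averages were 59.5 ± 20.6 units in treated and 29.1 ± 4.41 units in untreated mice (SD). All 4 IFIT genes rose in each genotype, led by Ifit3 with 3.11 ± 0.32, 2.36 ± 0.39 and 2.25 ± 0.35, and of 12 interferon-inducible GTPase genes that matched a row 12, 12 and 6 rose. Of 10 genes known for responding to interferon gamma, 3, 3 and 1 rose, and Cxcl10, a T cell chemokine that type I interferon also induces, did so in each, by 2.76 ± 0.28, 1.74 ± 0.34 and 1.29 ± 0.31. Between untreated p53-null and p21-null tumours the same lists held 5 calls, all higher in p53-null tumours. They were Cxcl10 (1.76 ± 0.34), Ifit3 (1.74 ± 0.39), Cxcl9 (1.42 ± 0.38), Tgtp2 (1.37 ± 0.29) and Ifi47 (1.37 ± 0.29).

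Markers of other cells moved with treatment in some groups, and their part in the values above was not tested. Of 13 macrophage markers, 7 rose in p21-null, 0 in p53-null and 6 in wild-type tumours, where 3.85%, 0.895% and 3.26% of all genes rose. Tested as differences between responses, 0 of the 13 passed (limma), so these counts do not show that the genotypes differed. The median differences were 0.71 (p21-null minus p53-null), -0.58 (p53-null minus wild-type) and -0.03 (p21-null minus wild-type). Their summed level was 1890 to 4860 units in treated and 1270 to 2110 units in untreated p21-null mice, 746 to 3190 units in treated and 1370 to 1830 units in untreated p53-null mice, and 1890 to 3550 units in treated and 1240 to 1750 units in untreated wild-type mice. In p53-null tumours 1 of the 13 had an unadjusted p under 0.05 (limma). In p21-null and wild-type tumours 8 and 9 of the 13 did. In p21-null, p53-null and wild-type tumours, neutrophil markers rose for 4, 0 and 1 of 7 (6, 0 and 2 with an unadjusted p under 0.05) and T cell markers for 2, 0 and 0 of 10 (8, 1 and 1 unadjusted). NK and cytotoxic cell markers rose for 2, 0 and 0 of 7 (6, 3 and 1 unadjusted), and dendritic cell markers for 1, 0 and 1 of 6 (2, 1 and 1 unadjusted). The neutrophil, T cell, NK and dendritic cell markers also gave 0 calls as differences between responses. Adipocyte markers passed for 1, 0 and 1 of 5, and 3, 4 and 5 of the 5 were higher at an unadjusted p under 0.05, with median log2 differences of 0.53, 1.26 and 0.92. Their summed level was 61.3 to 212 units in treated and 23.4 to 123 units in untreated p21-null mice, 63.5 to 216 units in treated and 29.8 to 87.5 units in untreated p53-null mice, and 55.3 to 119 units in treated and 28.7 to 50.1 units in untreated wild-type mice. In p21-null mice the summed level was 164 to 5350 units with and 44.9 to 388 units without doxorubicin for neutrophil markers, 16.4 to 68.2 and 14.4 to 23.3 units for T cell markers, and 12.4 to 45.2 and 4.61 to 20.2 units for NK markers. Markers of B cells, fibroblasts, endothelium and mammary epithelium gave 0 calls in these comparisons, with at most 2 of a list at an unadjusted p under 0.05. No marker of these lists was at 0 in all mice of a group. Red blood cell genes fell for 5, 4 and 4 of 5, and their summed level was 5.13 to 63.1 units in treated and 879 to 12900 units in untreated p21-null mice, 2.43 to 255 units in treated and 313 to 2770 units in untreated p53-null mice, and 39.5 to 238 units in treated and 550 to 3910 units in untreated wild-type mice. Between untreated p53-null and p21-null tumours, Lck was the only marker of these lists to pass, with a log2 difference of 1.25 ± 0.28.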

How the data were processed

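RNA was measured in 40 tumours of 34 mice. Per the submitters' processing notes and the file names, the authors deposited 1 table per tumour of RSEM transcript abundances as TPM on mm10 with Ensembl release 79 gene models. RSEM's version and the aligner are not given here. Per the labels' protocols, wild-type libraries used a stranded total RNA kit and both null genotypes used TruSeq RNA v2, so kit and wild-type against null cannot be told apart. TPM sum to a fixed total, so depth is unknown and no counting interval can be given.

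Of 43346 identifiers, 42462 matched GENCODE M21. Each tumour was rescaled so that 21461 nuclear protein-coding identifiers summed to 1000000, and log2(value + 1) was averaged over tumours that share a mouse number (6 mice). Nothing in the labels says whether mice differ in litter or day, within or between groups. P-values measure a spread between mice that is pooled over the 6 groups and both library kits. The 19893 genes that reached a value of 1 in 4 or more mice were fitted with limma 3.58.1 in R 4.3.3 (trended, robust empirical Bayes; statmod 1.5.0), 6 groups in 1 fit with 28 residual degrees of freedom. P-values were adjusted by Benjamini-Hochberg over all genes at 0.05. Alternatives changed the scale, pseudocount, filter, samples in the fit and moderation, or left out each mouse. One more, testing only protein-coding genes, was added after seeing the data.

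The 36 genes, their roles and the other lists were chosen with earlier results of these data known. All 36 are named, 14 with values of every mouse or the range and median, and at most 2 genes per other list and comparison, those with the smallest adjusted p. Some of these genes also have averages given in a genotype where they were not among the 2. Batf2, Xaf1, Siglech, Ccr9, Ly6d and Tcf4 were also singled out after their values were seen, as were Trp53 and Cdkn1a as the targeted genes. No protein sequence was used here. The count over the pathway's transcription factors is not reported here.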

Additional observations from a re-analysis of the deposited data

Results flagged for a closer look

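In each group of 4 to 9 mice, the highest or lowest value of each of the 36 genes was compared with its nearest neighbour by Dixon's test at the 95% level. Of 216 such sets of values 14 stood apart, where chance gives about 1 in 20, and the sets are not independent because the same mice recur.

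Untreated p53-null mouse m881 was far below the other 3 mice of its group for 5 genes, with 2.19 units of Rsad2, 17.2 of Parp12, 18.2 of Rnf213, 33 of Ifi35 and 6.45 of Il18bp. Treated p21-null mouse m4093 was far above the others for 3 genes, with 1030 units of Isg15, 2560 of Ifitm3 and 49.3 of Mx2. Untreated p21-null mouse m4116 stood apart above the others for Ifi35 (64.7 units, next 54.6) and Il18bp (8.84 units, next 7.3), where the other mice lay close together. Untreated wild-type mouse m1178 was far above its group for 3 genes, with 16.1 units of Usp18, 19.2 of Trim30a and 82.8 of Lgals3bp, and untreated wild-type mouse m996 was far below it for Ifi27l2a, with 21.9 units.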

How the results depend on the processing

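Under the alternatives run, no treatment difference and no difference between untreated null tumours changed sign for any of the 36 genes. Differences between responses, none of which passed as reported, changed sign in at least 1 alternative for 15 genes between p21-null and p53-null, 9 between p21-null and wild-type and 19 between p53-null and wild-type tumours. Their median was -0.01 with a pseudocount of 5, -0.07 without mouse m1556 and -0.06 without mouse m2769 between p21-null and p53-null tumours (0.10 as reported), and -0.12 without mouse m881 between p53-null and wild-type tumours (0.24 as reported). The counts not given here were within 1.5 times those reported. On TPM as deposited 12 genes rose in wild-type tumours with doxorubicin, 2 were called between untreated p53-null and p21-null tumours (Lgals3bp and Batf2), and 1 (Mx1) between the p21-null and wild-type responses. Between untreated p53-null and p21-null tumours, median-of-ratios scaling and a pseudocount of 0.1 each gave 2 calls and all 40 tumours as separate samples gave 3 (Xaf1 the third). With only the compared groups in the fit, 0 genes were called there (0.623% of all genes) and 0 in p53-null tumours with doxorubicin (0.00503% of all genes). That fit estimates the spread from fewer mice.

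Leaving out each mouse in turn gave 35 to 36 calls in p21-null tumours, 12 to 36 in p53-null tumours, 19 to 33 in wild-type tumours and 0 to 5 between untreated p53-null and p21-null tumours, and 0 for each difference between responses. A call was lost at least once for 1 of 36, 23 of 35, 14 of 33 and 1 of 1 genes. The p53-null range was set by untreated mouse m881 (12 without it), treated mouse m2771 (18) and treated mouse m2237 (21), and the wild-type range by treated mouse m1127 (19). Between untreated null tumours, Lgals3bp was lost without any 1 of p53-null mice m1556, m2119 or m2493 or of p21-null mice m4383, m4536, m4539 or m4555. No paired analysis was possible because the groups share no replicate numbers. Depth is unknown, so precision is limited by the number of mice.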
